A study of Mus musculus with 10 samples.

Results

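The 10 genes described here set or record position along the limb and trunk in the mouse: the homeobox genes Hoxa9, Hoxa10, Hoxa11, Hoxc8, Hoxc9, Hoxc10, Hoxd8 and Hoxd9, and the hindlimb transcription factor genes Pitx1 and Tbx4. They were chosen by symbol, as named genes of hindlimb and HOX positional identity, and all 10 were found among the 23337 genes of the count tables, which also list 39 genes of the HOXA, HOXB, HOXC and HOXD clusters in all. Their counts were read in bulk RNA-Seq of 10 libraries, 1 from the left ventricle (LV) and 1 from skeletal muscle (SkM) of each of 5 mice. The study asked how E0, a conserved sequence in intron 1 of the titin gene Ttn, controls Ttn expression. The labels give the tissue as skeletal muscle and do not name the muscle, so the positional genes describe where along the body the pieces carried their positional code, and how even that was between mice.

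The E0del/+ group (3 mice, replicates 1 to 3) carried a heterozygous deletion of E0 made with CRISPR/Cas9. The WT group (2 mice, replicates 1 and 2) lacked it. Mice of both groups were hybrids from crosses of C57BL/6 E0del/+ with 129SvEv WT animals, of both sexes. The labels give no age. The batch given by the labels equals the replicate number, so batch 3 held an E0del/+ mouse only. Total gene counts were 16252062, 15009186 and 14208815 in the E0del/+ SkM libraries, 13892390 and 17484873 in the WT SkM libraries, 15361520, 11010021 and 11463197 in the E0del/+ LV libraries, and 13019392 and 11112647 in the WT LV libraries, each in order of replicate. Levels are given as CPM, the count per 1000000 gene counts of the library, and the members and the HOX clusters are ordered by CPM per kb of summed exon length. List sums, and the choice of list genes to name, use CPM, which does not rank genes of unequal length.

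Hox genes are expressed in nested domains along the body axis and the limb, where genes of higher paralog number mark more posterior or distal positions, and adult mesodermal tissues keep much of this pattern as a record of where they formed. Pitx1 and Tbx4 act in the hindlimb field, while the related gene Tbx5 acts in the forelimb field and the heart. Limb muscle is built by migrating somitic precursors that express Lbx1 together with connective tissue of the limb bud, so that a bulk sample holds the positional code of both.

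The labels were first compared with markers of each tissue. The 8 fast fibre genes summed to between 106358 and 116156 CPM in the SkM libraries, with the most counts in the myosin gene Myh4 in each. In the LV libraries of E0del/+ mice and of WT replicate 1 they summed to between 110 and 125 CPM. The LV library of WT replicate 2 stood apart, with a sum of 26347 CPM and 18473 CPM of Myh4, against 70.3 to 81.7 CPM of Myh4 in the other LV libraries. It held the 6 ventricle genes at 46505 CPM, against 59749 to 67415 CPM in the other LV libraries and 61.8 to 314 CPM in SkM. The main results on members in LV are therefore given with and without that library. Counts and medians of lists in the comparison of tissues include it. Ttn, the gene that carries the deletion, stood at 20091.7, 18854.1 and 13585.4 CPM in E0del/+ SkM and at 24204.5 and 15855.6 CPM in WT SkM, where the genotypes overlapped. In LV it stood at 7737, 5560.1 and 6597.1 CPM in E0del/+ and at 7958.7 and 9344.2 CPM in WT, so each E0del/+ value was below both WT values. The higher WT value is from the library with fast fibre transcripts. Without it the nearest values, both of replicate 1, were 7737 and 7958.7 CPM, or 6179.8 and 6215.4 CPM with TMM factors. The deleted sequence is intronic, so these exon counts do not check the genotype labels. The SkM library of WT replicate 1 stood apart in another way, with 12.5 CPM of the Y-linked gene Ddx3y beside 397 CPM of Xist, the RNA that coats the inactive X chromosome, while LV of the same mouse had 0.384 CPM of Ddx3y and 518 CPM of Xist.

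Hoxc10, a group 10 gene of the HOXC cluster that is expressed in the posterior trunk and hindlimb, had the highest level per kb among the 10 genes in every SkM library. It spans chromosome 15 from 102966796 to 102971897 of mm10 on the plus strand, in 2 exons. It stood at 62.5, 71.0 and 76.0 CPM in E0del/+ SkM replicates 1 to 3 and at 61.4 and 102 CPM in WT replicates 1 and 2. In LV it had 3 counts over the E0del/+ libraries and WT replicate 1 together, at most 0.0872 CPM in a library, and stood at 20.6 CPM in WT replicate 2. Every SkM library was thus above every LV library, although the margin was set by 1 LV library. Counts of the 4 mice other than WT replicate 2, pooled by tissue, gave a ratio of SkM to LV of 1146 (95% exact interval 392 to 5560.5, covering counting error only). The fast fibre gene Myh4 had a ratio of 1014.5 (983 to 1048) by the same pooling. Whether the 3 Hoxc10 counts came from cells of LV was not tested.

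Hoxd8, a group 8 gene of the HOXD cluster with a broader trunk domain, came next per kb. It lies on chromosome 2 from 74705489 to 74707307 on the plus strand, in 2 exons. Its SkM level was 26.7, 35.9 and 40.3 CPM in E0del/+ and 32.6 and 46.7 CPM in WT. It was also the only member with counts in every LV library, at 0.976, 1.09 and 0.349 CPM in E0del/+ and 0.691 and 10.98 CPM in WT. Over the 4 mice other than WT replicate 2, the pooled level in SkM was 42.8 times that in LV (interval 31.3 to 60.1), so a low LV level was measured here rather than an absence.

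Hoxd9, its neighbour on chromosome 2 (74697763 to 74700208, plus strand), was the most uneven of the well counted members. It stood at 7.88, 7.13 and 15.8 CPM in E0del/+ SkM and at 9.50 and 18.0 CPM in WT SkM. The values of E0del/+ replicate 3 and WT replicate 2 were higher than any of the other three, and the genotypes overlapped. In LV it had 0, 0.363 and 0.262 CPM in E0del/+ and 0 and 3.51 CPM in WT, and the pooled ratio without WT replicate 2 was 72.4 (interval 34.9 to 181).

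RefSeq promoters (build GRCm38.p6, the assembly behind mm10) were available for 6 of the 10 members. The 250 bases before the RefSeq start are shown for the HOXD members, for Hoxa9 and Hoxa10, which were the HOXA members well counted in SkM, and for Tbx4. Pitx1 and the HOXC members, among them Hoxc10, had no entry. The search covered 6 short motifs on both strands, and capitals mark each match. The motifs were the HOX-PBX motif TGATNNAT (found in 7.68% of the 32851 promoters of the table over the same 250 bases), the MEIS motif TGACAG (15.9%), the CDX motif TTTATG (10.8%), the PITX motif TAATCC (6.25%), the T-box motif AGGTGTGA (1.12%) and the E-box CAGCTG (13%).
Hoxd9, chr2:74697513-74697762, plus strand: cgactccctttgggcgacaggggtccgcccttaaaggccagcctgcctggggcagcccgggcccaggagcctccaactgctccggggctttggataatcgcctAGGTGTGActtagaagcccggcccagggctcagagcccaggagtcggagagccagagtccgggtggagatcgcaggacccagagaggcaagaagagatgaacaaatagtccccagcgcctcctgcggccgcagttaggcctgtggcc
Hoxd8, chr2:74704365-74704614, plus strand: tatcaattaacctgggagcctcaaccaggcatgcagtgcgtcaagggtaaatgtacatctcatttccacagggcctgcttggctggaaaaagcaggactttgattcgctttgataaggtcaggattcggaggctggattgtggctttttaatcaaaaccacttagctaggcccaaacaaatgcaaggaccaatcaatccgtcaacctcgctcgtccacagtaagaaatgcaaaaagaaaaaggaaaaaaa
Hoxa9, chr6:52227371-52227620, minus strand: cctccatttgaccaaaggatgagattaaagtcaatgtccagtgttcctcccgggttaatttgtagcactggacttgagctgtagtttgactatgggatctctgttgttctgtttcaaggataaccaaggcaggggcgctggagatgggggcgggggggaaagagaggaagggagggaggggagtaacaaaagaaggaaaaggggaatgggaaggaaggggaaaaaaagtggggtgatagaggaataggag
Hoxa10, chr6:52240855-52241104, minus strand: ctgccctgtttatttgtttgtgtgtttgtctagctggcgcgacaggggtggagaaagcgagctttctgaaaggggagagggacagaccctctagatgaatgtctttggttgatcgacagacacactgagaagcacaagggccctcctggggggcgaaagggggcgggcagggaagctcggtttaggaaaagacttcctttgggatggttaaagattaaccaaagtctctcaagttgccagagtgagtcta
Tbx4, chr11:85896515-85896764, plus strand: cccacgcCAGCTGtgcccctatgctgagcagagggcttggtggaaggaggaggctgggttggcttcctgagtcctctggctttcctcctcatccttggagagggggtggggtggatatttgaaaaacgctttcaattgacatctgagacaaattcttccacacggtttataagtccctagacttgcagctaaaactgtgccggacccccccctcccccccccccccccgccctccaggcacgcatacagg
The Hoxd9, Hoxa9 and Hoxa10 starts coincide with the first exon of the count tables. The RefSeq start used for Hoxd8 lies 874 bases from that exon, and the one for Tbx4 lies 6702 bases from it, inside the gene as the tables give it. Hoxd9 held 1 T-box match and Tbx4 held 1 E-box match, and the windows of Hoxd8, Hoxa9 and Hoxa10 held none of the 6 motifs. A second Hoxa10 start and the start of Hoxa11 also held none. The median GC content was 52.0% over the 7 windows of members and 52.4% over all promoters of the table, with Hoxd9 highest among the members at 65.2% and Hoxd8 lowest at 44.4%. A match is a description of the letters and not of a binding site.

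**Figure D1:**
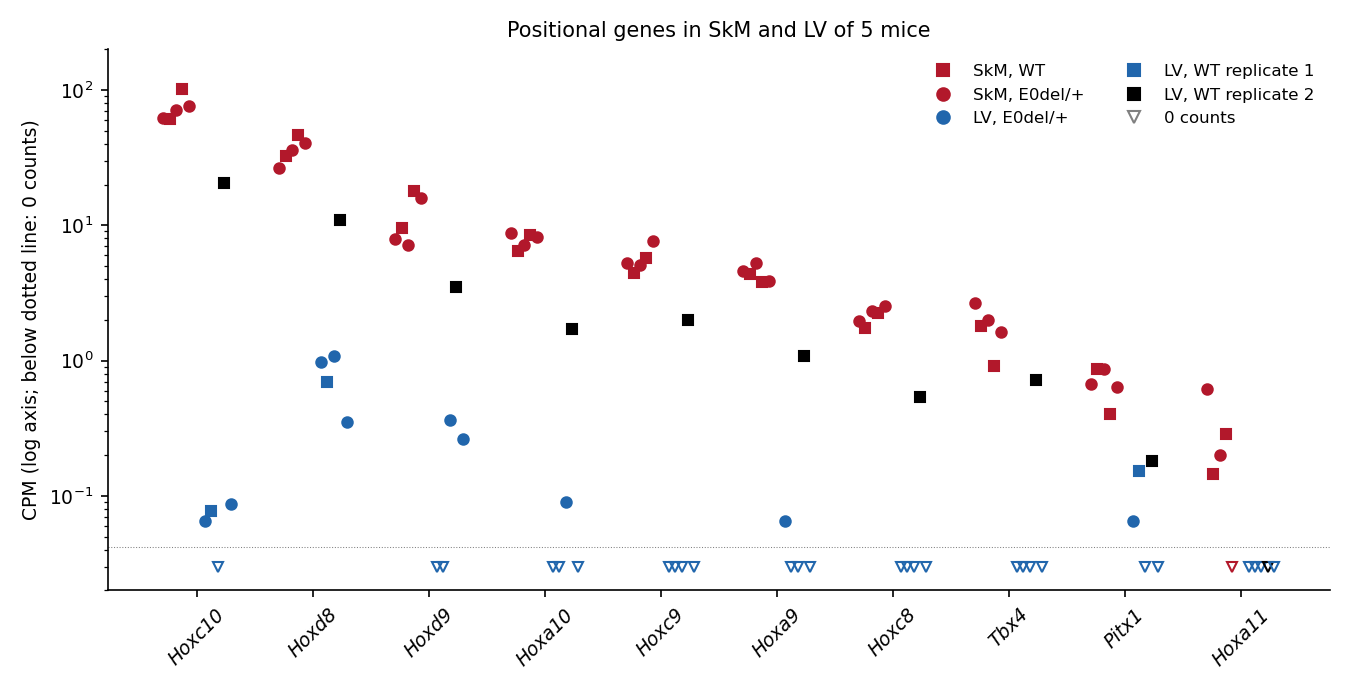
CPM (log axis) of the 10 genes in each library, SkM in red and LV in blue, with the LV of WT replicate 2 in black, squares for WT and circles for E0del/+; open triangles under the dotted line are libraries with 0 counts. Hoxc10 lay between 61.4 and 102 CPM in SkM, and the black squares lay between the other LV libraries and SkM for every member with counts in that library.

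The HOXA members lie within 1 stretch of chromosome 6 on the minus strand, Hoxa9 from 52224054 to 52227370, Hoxa10 from 52231197 to 52240854 and Hoxa11 from 52242106 to 52245767. Hoxa10 stood at 8.74, 7.20 and 8.16 CPM in E0del/+ SkM and 6.41 and 8.46 CPM in WT SkM, and Hoxa9 at 4.61, 5.26 and 3.87 CPM in E0del/+ and 4.39 and 3.83 CPM in WT. Both were close to even between mice. In LV each had 1 count outside WT replicate 2, where they stood at 1.71 and 1.08 CPM. Hoxa11, which patterns the zeugopod of both limbs, was near the limit of detection, with 0.615, 0.200 and 0 CPM in E0del/+ SkM and 0.144 and 0.286 CPM in WT SkM. The 0 in E0del/+ replicate 3 allows up to 0.211 CPM (3 counts of the library), and all 5 LV libraries had 0 counts. Over the 4 mice other than WT replicate 2, its pooled SkM level was 4.28 times a floor of 3 counts in LV. This floor bound takes the SkM counts as observed and leaves out their counting error. This bound rested on E0del/+ replicate 1, which held 10 of the 15 SkM counts behind it, and without that library it was 1.97-fold on 5 counts. In the count tables the exons of Hoxa11 share 525 bp with an antisense gene, Hoxa11as, and because the libraries carry no strand the reads of these genes cannot be told apart there.

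The remaining HOXC members lie beside Hoxc10 on chromosome 15, Hoxc9 from 102977032 to 102984444 and Hoxc8 from 102990539 to 102994254. Hoxc9 stood at 5.29, 5.13 and 7.67 CPM in E0del/+ SkM and 4.46 and 5.78 CPM in WT SkM. Hoxc8 stood at 1.97, 2.33 and 2.53 CPM in E0del/+ SkM and 1.73 and 2.23 CPM in WT SkM. The genotypes overlapped for both. Their only LV counts were in WT replicate 2, at 1.98 and 0.540 CPM. Against the pooled floor of the other LV libraries, the observed pooled SkM level was 95.4 times higher for Hoxc9 and 36.3 times higher for Hoxc8.

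Tbx4, the T-box factor of the hindlimb, lies on chromosome 11 from 85890063 to 85916097 on the plus strand, in 9 exons. It stood at 2.65, 2.00 and 1.62 CPM in E0del/+ SkM and 1.80 and 0.915 CPM in WT SkM. Pitx1, the homeobox factor that acts upstream of Tbx4 in the hindlimb, lies on chromosome 13 from 55825054 to 55831425 on the minus strand. It stood at 0.677, 0.866 and 0.633 CPM in E0del/+ SkM and 0.864 and 0.400 CPM in WT SkM, on 52 counts over the 5 libraries. Both genes were lowest in WT replicate 2, the library with the highest Hoxc10, Hoxd8 and Hoxd9. Tbx4 had 0 counts in the LV libraries other than WT replicate 2, where it stood at 0.720 CPM. Its observed pooled SkM level was 34.6 times the pooled floor of those other libraries. Pitx1 had 3 counts in those 4 LV libraries and 2 in WT replicate 2, with a pooled ratio of 12.9 (interval 4.13 to 64.6).

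Per kb of exon, the order of the mean levels in SkM was Hoxc10 at 38.9 ± 8.52 CPM per kb (SD, n = 5), Hoxd8 at 25.6 ± 5.32, Hoxd9 at 5.56 ± 2.35, Hoxc9 at 3.30 ± 0.707, Hoxa10 at 2.48 ± 0.309, Hoxa9 at 1.93 ± 0.260, Hoxc8 at 0.911 ± 0.133, Tbx4 at 0.551 ± 0.192, Pitx1 at 0.281 ± 0.0787 and Hoxa11 at 0.111 ± 0.102. The values of 2 steps in this order did not overlap, from Hoxd8 to Hoxd9 and from Hoxa9 to Hoxc8. All other neighbours overlapped between mice. Hoxc10 ranked 1207 and Hoxd8 ranked 1825 of the 18519 genes detected in SkM by this measure, and Pitx1 ranked 12922.

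The 39 Hox genes of the tables place these members within their clusters. In SkM, 24 of the 39 had at least 3 counts in every library and 7 had 0 counts in all 5, namely Hoxb1, Hoxb13, Hoxc12, Hoxc13, Hoxd11, Hoxd12 and Hoxd13. The HOXC cluster held 50.9% ± 2.19 of the Hox level per kb (SD, n = 5), HOXD 34.7% ± 3.14, HOXA 12.6% ± 2.47 and HOXB 1.74% ± 0.681. By paralog group, group 10 held 44.2% ± 2.59, group 8 26.7% ± 1.89 and group 9 10.9% ± 1.48, while group 11 held 1.67% ± 0.467 and group 12 none. The largest shares were close between mice, with HOXC between 47.3% and 53.3% and group 10 between 40.8% and 48.0%. The smaller ones were less even, with HOXA between 10.002% and 15.2%, HOXB between 1.04% and 2.78% and group 11 between 1.16% and 2.27%. The most 5′ gene with at least 3 counts in all 5 SkM libraries was Hoxc11 in HOXC, at 0.864 to 2.23 CPM, and Hoxd10 in HOXD, at 2.45 to 8.81 CPM. In HOXA that gene was Hoxa10, and Hoxa13 reached at most 0.492 CPM, in E0del/+ replicate 1. No HOXB gene exceeded 1.01 CPM in SkM.

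The LV libraries other than WT replicate 2 carried another profile at a much lower total. All Hox genes summed to between 5.15 and 11.7 CPM there, against 154 to 229 CPM in SkM. HOXB held 41.5% ± 7.77 of the level per kb (SD, n = 4) and HOXA 33.5% ± 5.88, with HOXC at 1.88% ± 1.63, and by paralog group the highest shares were 24.8% ± 4.56 in group 3, 20.6% ± 3.94 in group 4 and 16.0% ± 5.76 in group 8. Hoxb3, the 1 Hox gene tested that was not called between tissues, stood at 0.872 to 2.82 CPM in these LV libraries and at most 1.01 CPM in SkM. In the LV of WT replicate 2 the shares of HOXC (48.5%), HOXD (35.8%) and group 10 (42.1%) lay within the ranges of the SkM libraries. Those of HOXB (2.92%), group 2 (1.95%) and group 8 (28.5%) lay above the SkM ranges, and that of group 11 (0.352%) lay below.

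**Figure D2:**
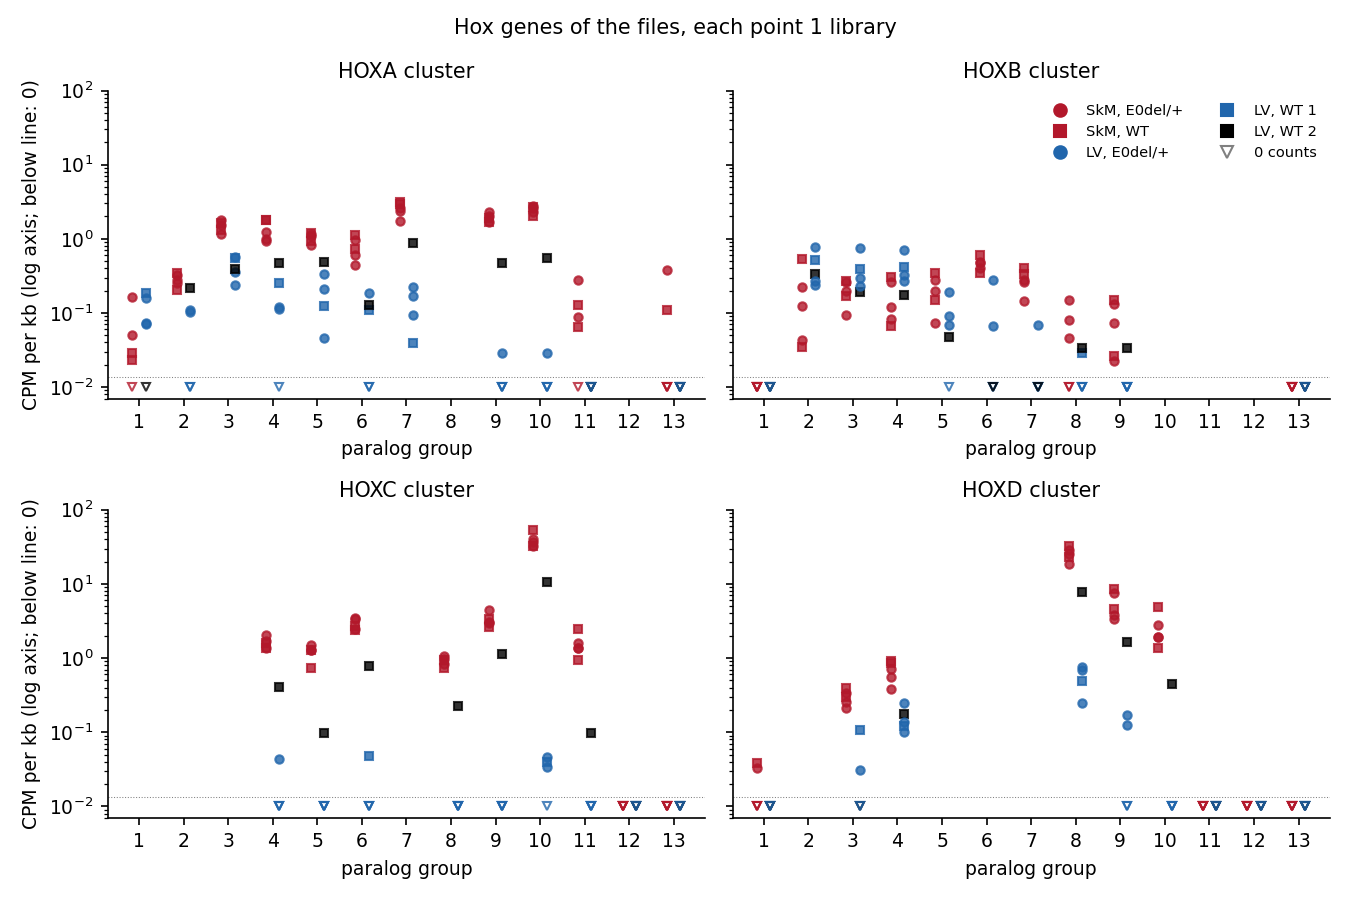
CPM per kb (log axis) of each Hox gene by cluster and paralog group, 1 point a library, SkM in red and LV in blue with the LV of WT replicate 2 in black, and open triangles for 0 counts. In SkM the level peaked at Hoxc10 and Hoxd8, and HOXC groups 12 and 13 and HOXD groups 11 to 13 had 0 counts.

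The LV library of WT replicate 2 was set beside SkM gene by gene. Its members summed to 41.3 CPM, 22.0% of the 188 CPM in SkM of the same mouse (95% exact interval 19.9% to 24.2%). With TMM factors these sums were 35.3 and 266 CPM, a lower share. Percentages in this paragraph are by CPM without TMM. In the other mice the LV sum was 0.963%, 1.13% and 0.445% of that in SkM for E0del/+ replicates 1 to 3 and 0.747% for WT replicate 1. Hoxc10 stood at 20.3% of its level in SkM of the same mouse (17.6% to 23.3%), Hoxd8 at 23.5% (19.3% to 28.5%) and Hoxd9 at 19.5% (13.6% to 27.2%). The 8 fast fibre genes stood at a median of 19.6% in the same pair of libraries, and Lbx1, the gene of migrating limb muscle precursors, at 25.8% (20.6% to 32.1%). The intervals of the sum and of Lbx1 lay above that median, as did those of 2 members, Hoxc9 at 34.3% (20.6% to 54.8%) and Tbx4 at 78.7% (29.1% to 195%), the latter on 8 counts in LV and against its lowest SkM level of the 5 mice. Against the other SkM libraries the summed level was 26.4% to 34.0% and the median of the fast fibre genes 21.9% to 24.5%. Which members lay above that median depended on the SkM library. Against the other 4, the interval lay above it 4 times for Hoxc10, Hoxd8 and the sum, 3 times for Hoxd9 and Lbx1, 1 time for Hoxc9 and 0 times for Tbx4. The source of the skeletal muscle transcripts in this library was not tested.

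**Figure D3:**
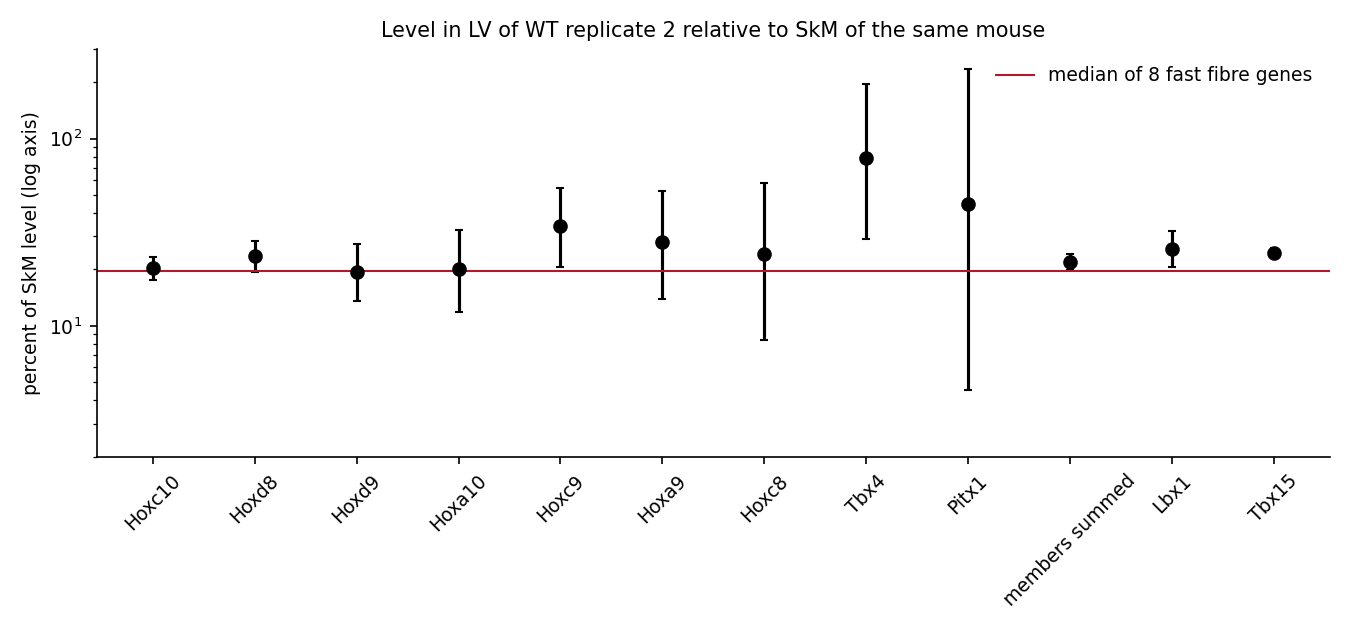
Level in the LV of WT replicate 2 as a percentage of that in SkM of the same mouse (log axis), with 95% exact counting intervals, for 9 members, their sum, Lbx1 and Tbx15. The red line is the median of the 8 fast fibre genes at 19.6%, and the intervals of 7 members include it, while those of Hoxc9, Tbx4, the sum, Lbx1 and Tbx15 lie above it.

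SkM was compared with LV across all genes, with the mouse as a block, in edgeR (quasi-likelihood fit), and p values were adjusted over all genes by Benjamini-Hochberg, with calls at an adjusted p under 0.05. Of the 13283 genes that passed the filter on low counts, 3986 (30.0%) were higher and 4269 (32.1%) lower in SkM. The filter passed 8 of the 10 members, without Pitx1 and Hoxa11, and those 8 were called higher in SkM. They passed through their SkM counts, so this count gives no support of its own. Without TMM scaling, the median of all genes shifted to -0.68 on the log2 scale and the calls split into 1590 higher and 7881 lower, with the same number of members called. Hoxc10 had a log2 fold change of 7.11 (SE 1.12, adjusted p = 9.3e-04, higher in 5 of 5 mice) and Hoxd8 one of 5.15 (SE 0.59, adjusted p = 1.9e-04, higher in 5 of 5 mice). Without the LV library of WT replicate 2 these were 10.51 (SE 0.24) and 6.01 (SE 0.26), of which the first rests on 3 counts in LV. All 8 members tested had every SkM library above every LV library, against 10.2% of the genes tested, which the filter favours in the same way. Pitx1, left out by the filter, had this order as well, and Hoxa11 did not. Without the filter, 3800 of 19567 genes were called higher, 9 of the 10 members among them. Pitx1 was called, with a log2 fold change of 3.59 (SE 0.86, adjusted p = 0.00741), and Hoxa11 was not, with 5.11 (SE 1.63, adjusted p = 0.0558). In bulk tissue, fewer cells of a type and less RNA per cell cannot be told apart.

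Evenness between the SkM pieces was described by the coefficient of variation (CV) of CPM over the 5 libraries, beside the CV that counting alone would give. The median CV of the 9 members tested in SkM was 21.4%, against 18.4% for all 13154 genes tested in SkM. The median counting CV was 10.7% for these members and 7.07% for all these genes, so at the median both sets varied more than counting gives. Hoxa10 (12.4%, counting 9.11%), Hoxa9 (13.4%, counting 12.2%) and Hoxc8 (14.6%, counting 17.4%) had values near their counting CV. That closeness held less with TMM factors, which gave CVs of 17.9% for Hoxa10, 16.0% for Hoxa9 and 21.7% for Hoxc8. Pitx1 varied by 28.0%, which is below its counting CV of 31.0%. Hoxc10 (21.9%, counting 2.94%), Hoxd8 (20.8%, counting 4.21%) and Hoxd9 (42.3%, counting 7.42%) varied by several times their counting CV. Hoxc9 (21.4%, counting 10.7%) and Tbx4 (34.9%, counting 19.1%) also varied more than counting gives, by a smaller factor. The sum of the members ran from 122 CPM in E0del/+ replicate 1 to 188 CPM in WT replicate 2, a ratio of 1.55 between the highest and the lowest library, and with TMM factors that ratio was 1.94. The share of Hoxc10 in that sum was even, at 51.1% ± 2.08 by CPM and 48.8% ± 2.06 per kb (SD, n = 5).

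Some members shared an order of the libraries, which was picked after it was seen in them. WT replicate 2 and E0del/+ replicate 3 were highest for 4 of the 9 members tested in SkM by CPM and 6 of 9 with TMM factors, against 13.9% and 21.5% of the 13154 genes tested there. The TMM factors of these libraries were 0.708 and 0.783. Hoxc10, Hoxd8, Hoxd9 and Hoxc9 each had their highest values in WT replicate 2 and E0del/+ replicate 3, as did Hoxd10, at 8.81 and 4.997 CPM against 2.45 to 3.45 CPM, and Lbx1, at 33.1 and 31.2 CPM against 24.0 to 27.1 CPM. These 6 genes had that order with and without TMM factors, though for Hoxc10 the margin with TMM was narrow (97.0 against 95.3). Hoxa10 and Hoxc8 had it only with TMM factors, by narrow margins (10.4 against 10.3 and 3.15 against 3.13 for the lower of these libraries and the next). Hoxa9, Hoxa11, Pitx1 and Tbx4 did not have it on either scale. The same libraries differed in other measures. The 5 slow fibre genes summed to 190 CPM in WT replicate 2 and 379 CPM in E0del/+ replicate 3, against 1509 to 2711 CPM in the other 3, with Myh7 at 73.8 and 160 CPM against 824 to 1548 CPM. None of the 5 slow fibre genes was at 0 in any SkM library. Both libraries also had Xist at no more than 0.422 CPM and the Y-linked gene Ddx3y at 94.1 and 108 CPM, while the others had Xist at 278 to 397 CPM and Ddx3y at 0.333 to 12.5 CPM, the last in WT replicate 1. The part of fibre make-up and sex in the positional differences was not tested.

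**Figure D4:**
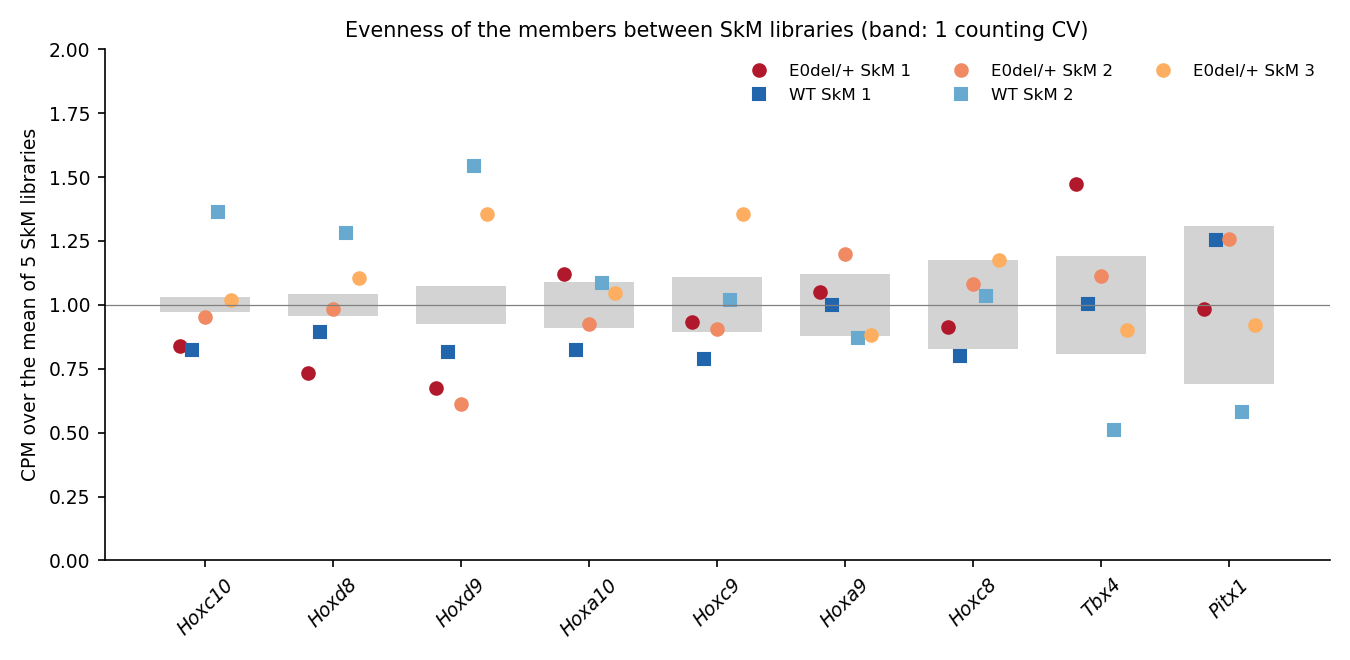
CPM of 9 members in each SkM library divided by the mean of the 5 libraries, squares for WT and circles for E0del/+, with a grey band of 1 counting CV on each side. Hoxd9 had the highest CV, and WT replicate 2 was highest for Hoxc10, Hoxd8 and Hoxd9 and lowest for Tbx4, Pitx1 and Hoxa9.

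Marker lists were summed in the same libraries. By CPM, the fast fibre sum was highest in WT replicate 2 and E0del/+ replicate 3, at 116156 and 115481 CPM, above 106358 to 113375 CPM in the others, but with TMM factors E0del/+ replicate 2 was above E0del/+ replicate 3. The 5 adipose genes summed to 130, 73.0 and 687 CPM in E0del/+ replicates 1 to 3 and 444 and 23.5 CPM in WT replicates 1 and 2, so WT replicate 2 was lowest and E0del/+ replicate 3 highest. The 8 connective tissue fibroblast genes summed to 193, 341 and 490 CPM in E0del/+ and 476 and 147 CPM in WT, with the most counts in Col3a1 or Dcn. The 5 satellite cell genes, with the most counts in Myod1, summed to 42.8, 32.8 and 41.7 CPM in E0del/+ and 39.9 and 57.2 CPM in WT. The 5 nerve genes, with the most counts in Pmp22, summed to 25.8, 35.4 and 105 CPM in E0del/+ and 150 and 94.3 CPM in WT. The 6 tendon genes ran from 12.8 to 49.9 CPM, the 5 skin genes from 4.003 to 12.2 CPM, the 5 cartilage and bone genes from 0 to 0.515 CPM, the 4 atrium genes from 5.42 to 17.2 CPM and the 2 blood genes found in the tables from 2.52 to 19.99 CPM. The blood sum was Alas2 alone in each SkM library, where Hba-a1 had no counts. The cartilage and bone list, at most 0.515 CPM and with 2 to 5 of its genes at 0 in each library, had its highest sums in WT replicate 2 and E0del/+ replicate 3 on both scales, and the satellite cell list did so only with TMM factors. In the comparison of SkM with LV, the number called higher and lower was 8 and 0 of 8 fast fibre genes tested, 2 and 2 of 5 slow fibre, 0 and 6 of 6 ventricle, 1 and 1 of 3 atrium, 3 and 1 of 4 satellite cell, 1 and 6 of 8 connective tissue, 1 and 1 of 4 tendon, 0 and 0 of 5 adipose, 0 and 1 of 2 skin, 3 and 0 of 5 nerve and 0 and 1 of 1 blood, with none of the cartilage and bone genes tested. The 5 adipose genes had a median log2 fold change of 4.25 in that fit, so the lack of calls does not mean equal levels.

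Genotype was compared within SkM to ask whether the positional genes were even between E0del/+ and WT mice. Of the 13154 genes tested by edgeR, 0 passed the threshold (0%), with 114 at an unadjusted p under 0.05, and DESeq2 called 0 as well. The filter passed 9 members, without Hoxa11, and 0 were called. The log2 fold changes were between -0.46 for Hoxd9 (SE 0.49) and 0.65 for Tbx4 (SE 0.48), with Hoxc10 at -0.25 (SE 0.30) and Hoxd8 at -0.22 (SE 0.30), each with an adjusted p of 0.9998. Within batch 1, the E0del/+ level over the WT level was 1.02 for Hoxc10, 0.819 for Hoxd8, 0.829 for Hoxd9 and 1.47 for Tbx4. Within batch 2 it was 0.699, 0.769, 0.396 and 2.18 for the same genes, and batch 3 held no WT mouse. Without WT replicate 2, and with the batch left out of the fit, the log2 fold change of Hoxc10 was 0.33, that of Hoxd8 0.22 and that of Hoxd9 0.25, so in that fit their sign changed. With the batch as a block they were -0.25 (SE 0.21), -0.33 (SE 0.18) and -0.81 (SE 0.34), and Hoxd8 and Hoxd9 were lower in E0del/+ within both batches. The SkM libraries of batch 2 also differed in Xist (0.343 CPM in WT, 278 in E0del/+) and Myh7 (73.8 and 1548 CPM). With Xist expression as a block, chosen after seeing the data, the 3 values were -0.09 (SE 0.22), -0.10 (SE 0.21) and -0.25 (SE 0.15). The part of sex and fibre make-up in them was not tested. Tbx4 moved to 0.34 without WT replicate 2 and to 1.06 without WT replicate 1, and Hoxa9 from 0.17 to 0.02 without E0del/+ replicate 2. No member had all E0del/+ libraries on 1 side of both WT libraries. With the batch as a block, 1 gene passed and no member did.

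In LV, 0 of 13420 genes passed the threshold for genotype (0%), with 564 at an unadjusted p under 0.05, and DESeq2, which gave an adjusted p for 1712 of them, called 12. The filter passed Hoxd8 alone, which had no adjusted p in DESeq2, and in edgeR it had a log2 fold change of -2.95 (SE 0.96, adjusted p = 0.997), so 0 members were called. Without WT replicate 2 the value for Hoxd8 was 0.22. Without WT replicate 1, which leaves the library with skeletal muscle transcripts as the lone WT sample, 578 of 14050 genes passed (4.11%), 574 of them lower in E0del/+, with all 5 members tested among these. Apart from Hoxd8, these members had at most 4 counts in any E0del/+ LV library and passed the filter through the lone WT library, so their number gives no support of its own. With the batch as a block, 5 genes passed and no member did.

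Lists of related genes were described by counts in the tissue comparison, beside a median log2 fold change of -0.02 over all genes tested. All counts and medians of lists are from the fit with the LV library of WT replicate 2. Without that library the log2 fold changes of Hoxc10 and Tbx4 moved from 7.11 and 4.69 to 10.51 and 8.12, so these medians depend on it. Of the 39 Hox genes, 18 were tested, 17 were higher and 0 lower in SkM, with a median of 5.31, against 30.0% of all genes higher. Of these 18, 10 had at most 3 counts over the LV libraries other than WT replicate 2 and passed the filter through SkM, so the number higher gives no support beyond the choice of genes. The same was true of all 4 genes higher in the hindlimb list below and 3 of the 4 in the forelimb and anterior list. Among Hox genes the filter left out, Hoxb4 and Hoxb2, chosen after their values were seen, had pooled ratios of SkM to LV under 1, at 0.452 (interval 0.278 to 0.721) and 0.524 (0.293 to 0.914) without TMM. TMM factors would raise both ratios. With them, in the mice other than WT replicate 2, Hoxb4 stood at 0.270 to 0.895 CPM in SkM and 0.586 to 1.28 CPM in LV. Hoxb2 stood at 0.0898 to 0.959 CPM in SkM and 0.312 to 0.899 CPM in LV, so the tissues overlapped for both genes. Of 7 hindlimb patterning genes, 5 were tested and 4 were higher (Tbx4, Hoxc10, Hoxc11 and Hoxd10), with a median of 6.03. The other gene tested, Islr2, was not called, with a log2 fold change of -0.51 and a pooled ratio of 0.553 (interval 0.393 to 0.773) without TMM. Isl1 did not exceed 0.211 CPM in SkM. Of 6 genes of the forelimb and anterior list, 5 were tested, 4 were higher and Tbx5 was lower, with a median of 5.30. Tbx5 stood at 35.5 to 52.8 CPM in LV and at most 0.493 CPM in SkM (18 counts over the 5 libraries), and per kb its mean in SkM was 0.0617 against 0.551 for Tbx4. Hoxc6, Hoxc4 and Hoxc5 of that list stood at 2.88 ± 0.521, 1.63 ± 0.284 and 1.22 ± 0.283 CPM per kb in SkM (SD, n = 5), so anterior members of HOXC were expressed beside Hoxc10. None of the lists had a gene past the threshold for genotype in either tissue.

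Of the 14 limb axis genes in the tables, 7 were tested, 1 was higher and 5 lower, with a median of -1.08. Lbx1 was the one higher, at 28.4 ± 3.70 CPM in SkM (SD, n = 5) and at most 0.174 CPM in the LVs other than WT replicate 2, while Meox2 and Tbx3, at 7.15 ± 2.75 and 5.03 ± 1.87 CPM, were lower in SkM than in LV. Of 5 head muscle genes, 4 were tested, 2 were higher and 2 lower, with a median of 1.25. Tbx1 (18.4 ± 3.90 CPM in SkM) was among those higher, and Msc (0.916 ± 0.678 CPM) and Tcf21 (0 counts in SkM) were lower. Of 9 HOX cofactor genes of the PBC and MEIS families, 8 were tested, 1 was higher (Pknox2, 52.1 ± 9.50 CPM in SkM) and 5 lower, Meis1, Meis2 and Meis3 among them, with a median of -0.999. Pknox1 stood at 14.7 ± 2.54 CPM in SkM. Of 7 noncoding RNA genes of the HOX clusters, only Hotair of the HOXC cluster was tested and higher, at 1.63 ± 0.431 CPM in SkM, with Mir196b and Mir10b at most 0.229 and 0.0720 CPM. Hotair and Lbx1 had 1 and 2 counts over the LV libraries other than WT replicate 2. Both passed the filter through SkM, so their calls give no support of their own. Of the 5 genes of heart position, 4 were tested and all 4 were lower in SkM (median -8.02), where Tbx20 stood at 0.621 CPM, Gata4 at 0.318 CPM and Irx4 at 0.163 CPM. They passed the filter through LV, as did Tbx5 and Tcf21, and within SkM 1 gene of this list was tested. These calls of lower genes therefore give no support of their own.

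Among the 5 genes outside the lists with the highest Pearson correlation to the mean log2(CPM + 0.5) of the members over the 10 libraries were Kctd15 (0.999), Gm16119 (0.998), Sim2 (0.998) and Phka1 (0.998). The libraries fall into 2 tissues with WT replicate 2 of LV between them, and 573 of the 13283 genes tested had a correlation over 0.95, so this order describes a pattern shared by many genes. Kctd15 had a mean of 152 CPM in SkM, 4.599 CPM in the LVs other than WT replicate 2 and 41.0 CPM in that library.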

How the data were processed

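The tables that the authors deposited hold, for each library and each of 23337 genes, a raw count, an RPKM value, exon coordinates and summed exon length. Libraries were made from poly(A) RNA with Nextera XT, which keeps no strand. The submitters' processing notes name STAR, DESeq2 and mm10 without versions. The counting software and annotation are not given in the sources used here. The deposited RPKM equal the counts divided by length and by the library total, and were used only to check the counts. No 2 libraries held identical values.

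Totals ran from 11010021 to 17484873 counts (median 14050602.5), so that 3 counts, the floor used for a count of 0, are 0.172 to 0.272 CPM. Intervals are exact at 95% and cover counting error only. CPM uses the total of gene counts without TMM, unless stated. Pooled ratios of SkM to LV and floor bounds use the same totals. Floor bounds set the observed SkM level over 3 counts in LV and leave out the counting error of SkM. TMM factors were 0.708 to 0.900 in SkM and 1.17 to 1.42 in LV, so they would raise each of these ratios and bounds. Counts were tested in R 4.3.3 with edgeR 4.0.16 (filterByExpr, TMM, quasi-likelihood test, Benjamini-Hochberg adjustment over all genes tested, threshold 0.05), after the fits were tested on simulated data. SkM and LV of a mouse come from 1 animal, so the mouse was a block. Correlations of the deviations from the group means between the tissues of a mouse ran from -0.10 to 0.12. The 2 WT mice gave the same value, 0.12, because deviations of 2 libraries from their mean mirror each other. For genotype, the batch in the labels equals the replicate number and pairs the mice of batches 1 and 2. Correlations of these deviations within batches 1 and 2 were 0.02 and -0.15 in LV and 0.43 and 0.27 in SkM. The WT deviations mirror each other here too, so the values of a tissue are not independent. Alternatives were the size factors and the Wald test of DESeq2 1.42.0, scaling by totals in place of TMM, no filter, at least 10 counts in every library, other blocks, libraries left out and 1 fit over all 10 libraries. Xist expression over 100 CPM as a block was chosen after seeing the data.

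The members and lists were chosen with earlier results of these data known. The genes named are the 10 members with every library's value, and genes from the 3 of each list highest in SkM by CPM, from any past the threshold for genotype and from the 5 most correlated with the members. Other genes were named after their values were seen. The lists were all Hox genes, hindlimb patterning, forelimb and anterior, limb axis, head muscle, HOX cofactors, noncoding RNA of the HOX clusters and heart position, and markers of fast and slow fibres, ventricle, atrium, satellite cells, connective tissue fibroblasts, tendon, cartilage and bone, adipose tissue, skin, nerve and blood. Promoters were searched in Python 3.11.15.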

Additional observations from a re-analysis of the deposited data

Results flagged for a closer look

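In LV, 8 of the 9 members with counts were far from the other libraries in WT replicate 2, each as the highest of the 5, by the ratio of the gap to the nearest library to the whole range (0.896 to 1, against a 95% critical value of 0.71). The CPM values in that library were 20.6 for Hoxc10, 10.98 for Hoxd8, 3.51 for Hoxd9, 1.98 for Hoxc9, 1.71 for Hoxa10, 1.08 for Hoxa9, 0.720 for Tbx4 and 0.540 for Hoxc8. Chance flags about 1 in 20 groups, and these 8 come from 1 library, so they are not separate observations. The same library held the fast fibre genes at 26347 CPM. In SkM, 0 of the 10 members had a library that far from the others.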

How the results depend on the processing

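For SkM against LV, the 8 members tested kept their direction and their side of the threshold in 88 of 88 values over the alternatives. The size of the change moved more. For Hoxc10 the log2 fold change ran from 4.82 without the block to 10.55 without WT replicate 2, with 9.97 by the DESeq2 Wald test. For Hoxd8 it ran from 4.37 without the block to 6.05 without WT replicate 2. Without the filter, Pitx1 was called as well and Hoxa11 was not. At least 10 counts in every library left no member to test there or for genotype in LV. For genotype in SkM, 108 of 116 member values kept their direction and side, and 8 changed sign without a call. Across libraries left out in turn, the log2 fold change ran from -0.66 to 0.33 for Hoxc10, -0.56 to 0.22 for Hoxd8, -0.96 to 0.25 for Hoxd9, -0.11 to 0.73 for Pitx1, -0.059 to 0.57 for Hoxc9, -0.087 to 0.54 for Hoxc8, -0.20 to 0.46 for Hoxa10, 0.34 to 1.06 for Tbx4 and 0.02 to 0.23 for Hoxa9. With the replicate as a block, edgeR called 1 gene for genotype in SkM and 5 in LV, and DESeq2 called 12 in LV, against 0 in each by edgeR without a block. In LV, leaving out libraries gave 0 to 578 genes, 0 to 5 members and -3.87 to 0.22 for Hoxd8. Leaving out a WT library leaves a lone WT sample, which is assumed to vary like the E0del/+ group. Xist expression as a block, chosen after seeing the data, gave 0 calls in both tissues, with 306 genes in SkM and 489 in LV at an unadjusted p under 0.05. The mean share of Hoxc10 in the members was 48.8% per kb against 51.1% by CPM. With TMM factors the mean sum of the members in SkM was 186 CPM against 145 CPM, and the LV of WT replicate 2 stood at 13.3% of SkM of the same mouse against 22.0%. By CPM, against SkM of the other mice, it stood at 34.0% and 30.2% (E0del/+ replicates 1 and 2), 33.5% (WT replicate 1) and 26.4% (E0del/+ replicate 3). With SkM libraries left out in turn, also chosen after seeing the data, the floor bound for Hoxa11 ran from 1.97-fold, without E0del/+ replicate 1, to 5.63-fold. The causes were not tested. Depth limits what can be said of Hoxa11 and Pitx1, with 20 and 52 counts in SkM.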

Other observations

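The LV library of WT replicate 2 also held genes at levels far above every other library. Of all genes, 76 were over 2 CPM there and over 6 times their level in every other library, against 7 in SkM of WT replicate 1, 1 in SkM of E0del/+ replicate 3 and 0 in the others. Examples, chosen after their values were seen, were Lin28a, an RNA-binding protein gene of early embryonic cells, at 57.5 CPM against at most 1.83, Sox2, a transcription factor gene of stem and neural progenitor cells, at 22.1 CPM against at most 0.144, and Tubb3, a neuronal tubulin gene, at 63.3 CPM against at most 0.845. These genes are not among the members, and their source was not tested. The 7 genes of SkM of WT replicate 1 were Krt14, Gjb2, Tnfsf11, Cel, Csn1s1, Areg and Calca, with the milk casein gene Csn1s1 at 52.3 CPM against at most 8.31 elsewhere.

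Tbx15, a T-box gene of limb and trunk mesenchyme and of fast muscle fibres that is in no list here, was chosen after its values were seen. It stood at 376, 346 and 524 CPM in E0del/+ SkM and 416 and 500 CPM in WT SkM, again highest in E0del/+ replicate 3 and WT replicate 2. In LV it was at most 2.97 CPM outside WT replicate 2, where it stood at 122 CPM. Hoxa11as, the antisense neighbour of Hoxa11, had 13 counts in SkM of WT replicate 2 and 1 or 2 in each other SkM library, and 0 in every LV library.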
